A study of Arabidopsis thaliana with 44 samples.

Results

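The genes of the plastid and mitochondrial genomes were taken as all probe sets whose locus name begins with ATCG or ATMG. They numbered 107 of the 27827 probe sets in the table, 15 plastid and 92 mitochondrial, and the genomes were kept apart throughout. RNA came from freshly harvested dry Arabidopsis seed of 3 near isogenic lines, NIL DOG1, NIL DOG3 and NIL DOG6, each named for a seed dormancy locus (DELAY OF GERMINATION). Mother plants had been kept at a temperature of 15C or 20C, with low nitrate (N0), in low light (LL) or in standard light (SL). In the series' design 15C and N0 are set against 20C, and LL against SL. The 15 groups had 3 arrays each, apart from NIL DOG3 with N0, which had 2, so 44 arrays were used, every one from seed bulked over 4 plants, and the plants stood in a randomized complete block design. Molecule labels read total RNA, although the extraction protocol also describes polysomal RNA, and how the labelling reaction was primed is not given in the sources used here.

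Plastids and mitochondria descend from bacteria and keep small genomes of their own. Plastid genes are read by a plastid-encoded RNA polymerase, which needs sigma factors made in the nucleus, and by nuclear-encoded phage-type polymerases. Mitochondrial genes are read by phage-type polymerases alone, and the long primary transcripts of both organelles are cut, trimmed and degraded by nuclear-encoded ribonucleases. The Arabidopsis embryo is green and photosynthetic during seed filling and loses its chlorophyll as the seed matures, while its mitochondria support respiration when the seed takes up water. The locus names of the 107 members were not paired with a gene symbol or function in the sources used here, so they are given by locus name and no role is assigned to any of them.

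Levels are log2 values as the authors deposited them. A change is a difference of log2 group means, given with its standard error (SE), and adjusted p-values come from limma with Benjamini-Hochberg adjustment over all 27827 probe sets. A probe set was called at an adjusted p below 0.05. Array medians lay between 4.22 and 4.39, and no pair of arrays held identical values. In bulk seed, fewer cells of a type and less organelle RNA per cell cannot be told apart.

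Many members could not be separated from another locus. The values of 49 members were identical on every array to those of another probe set. For 41 of these the other probe set was a nuclear locus, 8 of the 15 plastid and 33 of the 92 mitochondrial members. All 33 nuclear partners of mitochondrial members lie on chromosome 2, which in Arabidopsis carries a large copy of the mitochondrial genome. The plastid members had 3 such partners on chromosome 2 and 5 on chromosome 3. By the RefSeq table, the nuclear partner is a pseudogene for 26 of the 41 members, a tRNA gene for 10 and protein-coding for 5. A further 8 members were identical to another organelle locus only, and 3 plastid and 55 mitochondrial members had no identical partner. The 107 members held 102 distinct profiles. ATCG00610 and ATMG00930, from different genomes, shared a single profile. Both have the nuclear tRNA gene AT2G07748 as partner, which is thus counted for each of them.

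Organelle transcripts were among the brightest signals of the dry seed. The median level was 9.41 for the plastid and 8.35 for the mitochondrial members, beside 4.29 for all probe sets. All 15 plastid and 88 of the 92 mitochondrial members lay above that value, and 12 and 46 of them were in the top 10% of probe sets. The highest plastid signals came from ATCG00020 (12.31), ATCG00670 (11.55), ATCG00140 (11.05) and ATCG00580 (10.62), and the lowest from ATCG00230 (6.17) and ATCG00250 (7.23). The highest mitochondrial signals came from ATMG01190 (11.92), ATMG01200 (11.65), ATMG01120 (11.63) and ATMG00160 (11.43). ATMG00040 (1.98) and ATMG01180 (2.15) were the dimmest, and with ATMG01090 (2.26) and ATMG00450 (2.99) they were the 4 members below the median of all probe sets. Probe sets differ in their response to RNA, so this order describes signals on the array and not amounts of transcript.

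Over the 15 groups the mean plastid level was lowest at 15C in each line, at 9.20 in NIL DOG1, 9.02 in NIL DOG3 and 9.13 in NIL DOG6. The other 12 groups lay between 9.28 and 9.62. Mean mitochondrial levels covered a narrower range, from 7.91 to 8.27. The lowest of these belonged to NIL DOG1 under SL, followed by NIL DOG3 at 15C with 7.95. Arrays of the same group differed by up to 0.486 in the plastid mean (NIL DOG1 at 15C) and by up to 0.397 in the mitochondrial mean (NIL DOG1 under LL), so neighbouring groups in this order overlap.

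**Figure D1:**
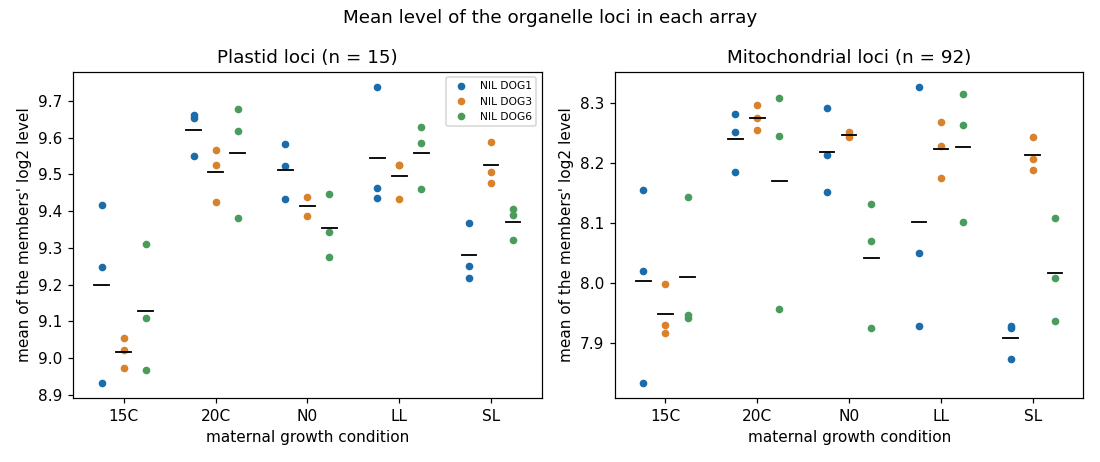
Mean log2 level of the 15 plastid loci (left) and the 92 mitochondrial loci (right) in each of the 44 arrays, by growth condition and NIL. Points are arrays and black bars are group means. The 15C groups have the lowest plastid means, between 9.02 and 9.20, while the lowest mitochondrial mean, 7.91, is that of NIL DOG1 under SL.

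Seed grown at 15C had lower levels of plastid transcripts than seed grown at 20C. Averaged over the 3 lines, 9 of the 15 plastid members fell and none rose, beside 12.8% of all probe sets lower and 12.5% higher. These 9 members are 7 distinct profiles. The median plastid change was -0.37, beside 0.0048 for all probe sets, and 14 of the 15 changes were below 0. The exception was ATCG00580, with a change of 0.21 ± 0.10 (adjusted p = 0.105). Signals of the brightest plastid member, ATCG00020, differed by -0.02 ± 0.05 (adjusted p = 0.868).

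ATCG00250 changed the most of all members. Its 9 arrays at 15C ranged from 5.57 to 7.09 with a median of 5.92, and its 9 arrays at 20C from 6.88 to 8.10 with a median of 7.86. The fall was 2.91-fold (-1.54 ± 0.16, adjusted p = 2.05e-09). In NIL DOG1 the arrays read 6.56, 5.57 and 7.08 at 15C, and 8.10, 7.92 and 8.05 at 20C. NIL DOG3 gave 5.57, 5.70 and 5.59 at 15C, and 7.44, 7.91 and 7.51 at 20C. These groups did not overlap in either line. In NIL DOG6 the arrays read 6.47, 5.92 and 7.09 at 15C, and 7.86, 6.88 and 7.79 at 20C, so there the highest 15C array lay above the lowest 20C array. The differences were -1.62 in NIL DOG1, -2.00 in NIL DOG3 and -1.01 in NIL DOG6. This member had no identical partner.

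ATCG00240 went from a median of 8.23 at 20C (7.76 to 8.47) to 7.06 at 15C (6.75 to 7.65), a fall of 1.95-fold (-0.96 ± 0.11, adjusted p = 1.15e-08). Its values are also those of the nuclear pseudogene AT3G20365 on chromosome 3. ATCG00970 and ATCG01160, which share a single profile, went from 9.94 (9.66 to 10.19) to 9.12 (8.86 to 9.49), a fall of 1.80-fold (-0.85 ± 0.08, adjusted p = 1.93e-10). In these 3 plastid members every 15C array lay below every 20C array, as it did in 2.43% of all probe sets. ATCG00170 (-0.43 ± 0.10, adjusted p = 0.00151) and ATCG00160 (-0.42 ± 0.08, adjusted p = 0.000185) fell less, and their arrays overlapped. The 3 remaining called members were ATCG00990 and ATCG01140, again a single profile, at -0.37, and ATCG00150 at -0.20. ATCG00170, ATCG00160 and ATCG00150 have the values of the nuclear pseudogenes AT3G33004, AT3G33002 and AT3G33000 on chromosome 3.

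Mitochondrial transcripts shifted the same way by a smaller amount. At 15C 37 of the 92 mitochondrial members fell and 2 rose, beside the same 12.8% and 12.5%. The median change was -0.18, and 78 of the 92 changes were below 0. ATMG00770 fell most, from a median of 4.87 at 20C (3.67 to 5.47) to 3.85 at 15C (3.31 to 4.52), which is 2.04-fold (-1.03 ± 0.17, adjusted p = 1.81e-05). ATMG00240 followed, from 5.49 (4.69 to 6.24) to 4.41 (4.06 to 5.75), with a change of -0.86 ± 0.23 (adjusted p = 0.00512). The arrays of both overlapped between the temperatures. The values of ATMG00240 are also those of the nuclear pseudogene AT2G07729 on chromosome 2.

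ATMG01300 fell by 0.80, ATMG00750 by 0.78, ATMG01310 by 0.75 and ATMG00170, which has the same values as ATMG00620, by 0.73. The nuclear pseudogene AT2G07686 has the values of ATMG00750, and the protein-coding nuclear gene AT2G07691 has those of ATMG01310. ATMG00500, chosen after its values were seen, changed by -0.32 ± 0.05. It was the sole 1 of the 92 mitochondrial members whose 15C arrays (9.21 to 9.47) all lay below its 20C arrays (9.47 to 9.80). Over all probe sets 2.43% had arrays set apart in this way, so such separation was not more frequent among mitochondrial members. The 2 that rose were ATMG00730, from a median of 8.58 (8.09 to 9.05) to 8.92 (8.57 to 9.16; 0.36 ± 0.09, adjusted p = 0.00233), and ATMG00190, from 5.38 (5.05 to 5.51) to 5.76 (5.13 to 6.04; 0.32 ± 0.10, adjusted p = 0.0158). Without NIL DOG6 15C replicate 2, ATMG00190 did not pass (adjusted p = 0.0521).

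The size of the fall went with the signal level. Of the 16 mitochondrial members with a mean level under 6, 10 fell and the median change was -0.49, beside 12.8% of all probe sets lower at any level. Of the 24 with a level of 10 or more, 3 fell and the median was -0.04. In between, 13 of 25 fell at levels of 6 to 8 (median -0.29) and 11 of 27 at levels of 8 to 10 (median -0.18). The plastid members had the same order, with medians of -0.96 for the 3 at 6 to 8, -0.42 for the 7 at 8 to 10 and -0.18 for the 5 at 10 or more. All probe sets were not divided by level, so whether this order is particular to organelle members was not tested.

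Members with and without a nuclear partner were both among those that fell. Of the mitochondrial members with a nuclear partner, 16 of 33 fell at 15C, with a median of -0.18, beside 12.8% of all probe sets lower. Of those with no identical partner, 19 of 55 fell and 2 rose, with a median of -0.16. Among plastid members 4 of the 8 with a nuclear partner fell, all 4 of those paired with another organelle locus alone, and 1 of the 3 with none.

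**Figure D2:**
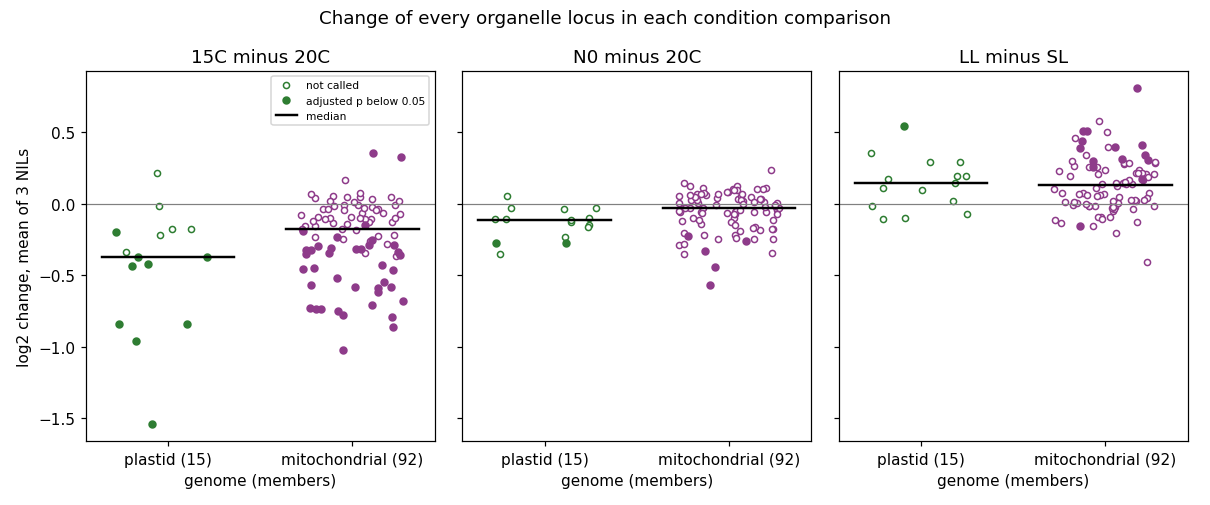
Change of each organelle locus in the 3 condition comparisons (log2 difference, mean of the 3 NILs), with the 15 plastid and 92 mitochondrial loci in separate columns. Filled points have an adjusted p below 0.05 and bars are medians. At 15C the points lie mostly below 0, with medians of -0.37 and -0.18, while under LL they lie mostly above 0, with medians of 0.15 and 0.13.

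Within single lines the counts differed, and most changes were below 0 in each line. At 15C 4 plastid and 8 mitochondrial members fell in NIL DOG1, 4 and 23 in NIL DOG3, and 7 and 3 in NIL DOG6, beside 4.4%, 4.24% and 5.97% of all probe sets lower in the same lines. Of all members, 1 rose, in NIL DOG3, where 4.95% of all probe sets were higher (5.33% in NIL DOG1 and 5.72% in NIL DOG6). The 3 mitochondrial members lower in NIL DOG6 are 3.26% of the 92, a smaller share than that of all probe sets. In NILs DOG1, DOG3 and DOG6, 93.3%, 86.7% and 93.3% of plastid changes were below 0. The shares were 83.7%, 82.6% and 77.2% for mitochondrial members and 52.2%, 51.1% and 46.2% for all probe sets. The differences were below 0 in every line for 13 plastid and 61 mitochondrial members, a count not made over all probe sets. The numbers of calls rest on few arrays. The total for NIL DOG1 went from 12 to 6 without its 15C replicate 2 or its 20C replicate 1, that for NIL DOG3 from 28 to 17 without its 15C replicate 2, and that for NIL DOG6 from 10 to 6 without its 20C replicate 1 and to 16 without its 20C replicate 2.

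Whether lines differed in their response was tested with a moderated F test. For 15C, limma called 0 of the 107 members (0.0395% of all probe sets), and 2 had an unadjusted p below 0.05, beside 1394 of all 27827 probe sets. In limma's F test ATCG00250 had an adjusted p of 0.989 and ATMG00350 an adjusted p of 0.699. For N0, 0 were called (0% of all) and 2 mitochondrial members had an unadjusted p below 0.05, beside 1574 of all 27827 probe sets. For LL, 0 were called (0.00359% of all) and 8 of the 92 mitochondrial members had such a p, beside 1855 of all 27827. Every member called at 15C thus has a difference between lines that did not pass the test, which does not show that the lines respond alike.

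Nuclear genes whose products transcribe organelle DNA were lower at 15C too. Of 21 such genes, which comprise sigma factors, phage-type polymerases and proteins bound to the plastid-encoded polymerase, 15 fell and none rose (12.8% of all probe sets lower). Their median change was -0.24. Their mean level per array lay between 6.13 and 6.31 at 15C and between 6.44 and 6.60 at 20C, without overlap. PAP7 (AT4G20130), a protein of the plastid transcription complex, changed by -0.65 ± 0.08 and RPOTp (AT2G24120), a plastid phage-type polymerase, by -0.58 ± 0.06. The sigma factor SIG4 (AT5G13730) changed by -0.53 ± 0.12. Of 6 genes for organelle ribonucleases and RNA-binding proteins, 3 fell, with a median of -0.24. These were mitochondrial polynucleotide phosphorylase (AT5G14580, -0.54 ± 0.07), RNJ (AT5G63420, -0.36 ± 0.07) and RNR1 (AT5G02250, -0.20 ± 0.05). The part of either list in the organelle levels was not tested.

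Nuclear genes for the organelles' protein complexes had medians near 0 at 15C. Of 13 photosynthesis genes 2 rose and 2 fell (median 0.0079), beside 12.5% of all probe sets higher and 12.8% lower, and 2 of the 13 had a level above the median of all probe sets. LHCB1.3 (AT1G29930), a light-harvesting protein, changed by 0.51 ± 0.15, PSAD1 (AT4G02770), a photosystem I subunit, by -0.48 ± 0.14, and LHCB3 (AT5G54270) by -0.42 ± 0.11. Of 17 genes of the respiratory chain and its ATP synthase 1 rose and 5 fell (median -0.03), led by the Rieske protein gene RISP (AT5G13430, -0.42 ± 0.10), an ATP synthase beta gene (AT5G08680, -0.38 ± 0.10) and CA1 (AT1G19580, -0.34 ± 0.08). All 5 seed marker genes had a level above the median of all probe sets, and SESA1 (AT4G27140), a seed storage albumin, was the 1 of them that fell (-0.39 ± 0.07). Of 10 pollen markers 2 fell at 15C, and their median change of -0.54 was the lowest of the 6 nuclear lists, with a mean level per array of 4.93 to 5.77 at 15C and 5.21 to 6.27 at 20C. The part of pollen RNA in the 15C result was not tested.

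**Figure D3:**
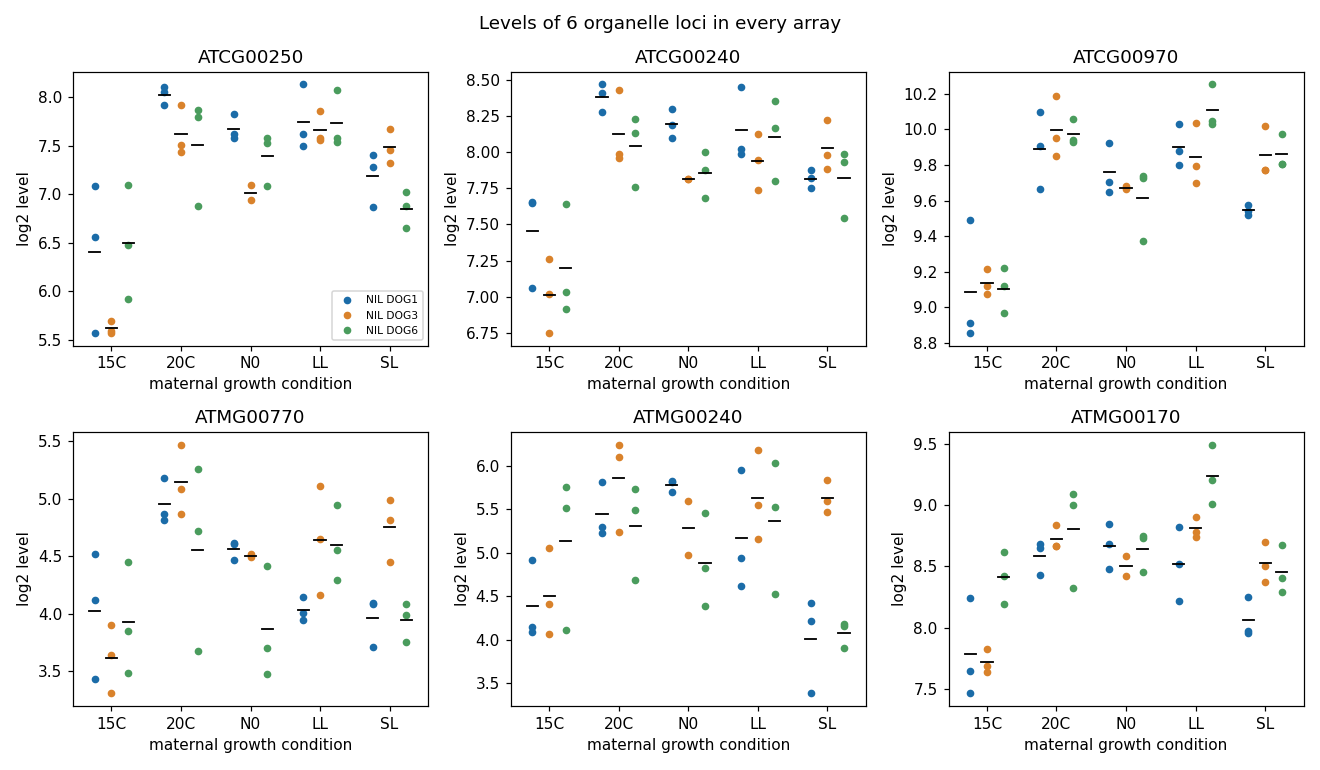
Log2 level of 3 plastid loci (top) and 3 mitochondrial loci (bottom) in every array, by growth condition and NIL. Points are arrays and black bars are group means. In ATCG00240 and ATCG00970 all 15C arrays lie below all 20C arrays. ATMG00240 under SL lies between 3.38 and 4.42 in NILs DOG1 and DOG6 and between 5.46 and 5.84 in NIL DOG3.

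Low nitrate moved few organelle transcripts. Under N0 2 plastid members fell, beside 6.07% of all probe sets lower, and none rose (5.86% higher). These were ATCG00970 and ATCG01160 with their single profile, from a median of 9.94 at 20C (9.66 to 10.19) to 9.69 under N0 (9.38 to 9.93), a change of -0.27 ± 0.08 (adjusted p = 0.0202). Of the 92 mitochondrial members 5 fell (5.43%) and none rose, so their share lower was no larger than the 6.07% of all probe sets. ATMG00770 changed by -0.57 ± 0.18 (adjusted p = 0.03) and ATMG00880 by -0.44 ± 0.13 (adjusted p = 0.0224). ATMG00860 changed by -0.33 ± 0.10, ATMG00850 by -0.26 ± 0.08 and ATMG00400 by -0.23 ± 0.06, and the arrays of all these members overlapped. ATCG00250 did not pass, with arrays of 6.94 to 7.83 under N0 (median 7.55) and a change of -0.35 ± 0.16 (adjusted p = 0.183). The median changes were -0.12 for plastid and -0.03 for mitochondrial members. Within lines, 2 members fell in NIL DOG6 (ATMG00880 and ATMG00950, beside 2.45% of all probe sets lower and 2.12% higher), and limma called 0 in NIL DOG1 (1.18% lower, 1.56% higher) and 0 in NIL DOG3 (1.57% lower, 1.39% higher), with 5 and 4 members at an unadjusted p below 0.05. Over all 27827 probe sets 3488 in NIL DOG1 and 3620 in NIL DOG3 had such a p.

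The N0 and 15C comparisons share the 20C arrays. Side by side, ATCG00970 was at 9.12 at 15C, 9.69 under N0 and 9.94 at 20C (medians), and ATMG00770 at 3.85, 4.48 and 4.87. The N0 calls rest on few arrays. The mitochondrial count fell from 5 to between 1 and 3 when any of 7 arrays was left out (replicates 2 and 3 of NIL DOG3 at 20C and under N0, replicates 1 and 3 of NIL DOG6 at 20C, and replicate 2 of NIL DOG6 under N0). The plastid count fell to 0 without replicate 3 of NIL DOG1 or NIL DOG3 at 20C, replicate 3 of NIL DOG3 under N0 or replicate 2 of NIL DOG6 under N0. Of the nuclear organelle transcription genes 7 of 21 fell under N0 (median -0.12), beside 6.07% of all probe sets lower. Among them were SIG6 (AT2G36990, -0.64 ± 0.12), SIG4 (-0.40 ± 0.12) and PAP6 (AT3G54090, -0.36 ± 0.07). Beside the same 6.07%, 1 of 6 ribonuclease and RNA-binding genes fell (AT5G14580, -0.23 ± 0.07). Of the photosynthesis genes 3 of 13 fell, led by RBCS1A (AT1G67090, -0.62 ± 0.10), a small subunit of Rubisco. The respiratory genes had 3 of 17 lower, led by RISP (-0.37 ± 0.10), and the seed markers 1 of 5, SESA1 (-0.58 ± 0.07).

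Low light went with higher levels. Compared with SL, 1 plastid and 13 mitochondrial members rose under LL, beside 2.73% of all probe sets higher, and 1 mitochondrial member fell, beside 3.63% lower. The median changes were 0.15 for plastid and 0.13 for mitochondrial members and 0.01 for all probe sets. ATCG00250 was the plastid member that rose, from a median of 7.28 under SL (6.65 to 7.67) to 7.58 under LL (7.50 to 8.13), a change of 0.54 ± 0.16 (adjusted p = 0.0325). ATMG00240 changed by 0.81 ± 0.23 (adjusted p = 0.0314). Its SL arrays read 4.42, 3.38 and 4.22 in NIL DOG1, 5.84, 5.59 and 5.46 in NIL DOG3, and 4.15, 4.18 and 3.91 in NIL DOG6. Its LL arrays read 5.95, 4.62 and 4.94, then 5.54, 6.17 and 5.16, then 6.03, 5.53 and 4.52. The groups did not overlap in NILs DOG1 and DOG6 and overlapped in NIL DOG3, where the difference was -0.01.

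ATMG00170 and ATMG00620, a single profile, rose from 8.37 (7.96 to 8.70) to 8.82 (8.22 to 9.49; 0.51 ± 0.10, adjusted p = 0.00207). ATMG00850 rose from 7.74 (7.42 to 7.95) to 8.21 (7.75 to 8.50; 0.44 ± 0.08, adjusted p = 0.000712). ATMG00870 rose by 0.41 ± 0.11 and ATMG01230 by 0.40 ± 0.12, and the remaining 7 that rose changed by between 0.17 and 0.39. ATMG01270 fell, from 10.67 (10.53 to 10.77) to 10.48 (10.37 to 10.68; -0.16 ± 0.04, adjusted p = 0.0247). In each of these members the LL and SL arrays overlapped. With 1 of the 44 arrays left out in turn, ATMG01230 lost its call in 14 fits (limma adjusted p up to 0.123), ATMG00240 in 8 (up to 0.0915), and ATMG00870 and ATMG01270 in 4 each.

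By line the median LL change was 0.26 for plastid and 0.18 for mitochondrial members in NIL DOG1, -0.05 and -0.0006 in NIL DOG3, and 0.23 and 0.18 in NIL DOG6. Within a line 1 member rose in NIL DOG1 (0.352% of all probe sets higher, 0.226% lower) and 7 in NIL DOG6 (1.2% higher, 1.3% lower). In NIL DOG3 0 were called (0.00359% higher, 0.0108% lower), and 2 members had an unadjusted p below 0.05 in the limma fit, beside 2112 of all 27827 probe sets. The 15C and LL comparisons share no arrays. Of the 37 mitochondrial members that fell at 15C, 9 rose under LL (24.3%), which are 69.2% of the 13 that rose under LL. Over all probe sets these shares were 9.07% of those lower at 15C and 42.4% of those higher under LL, and 40.2% of all mitochondrial members fell at 15C. ATCG00250 did both as well.

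These LL calls depended on single arrays. The mitochondrial count of 14 went to between 7 and 9 without replicate 1 of NIL DOG1 or NIL DOG6 under LL, replicate 2 of NIL DOG3 under LL or replicate 3 of NIL DOG1 under SL. ATCG00250 did not pass without any 1 of 7 arrays (these 4, replicate 3 of NIL DOG3 under SL, and replicates 1 and 2 of NIL DOG6 under SL), while the plastid count was 2 without replicate 2 of NIL DOG1 under LL. Without the 3 SL arrays numbered 2 the counts were 0 plastid and 5 mitochondrial. Pollen marker transcripts moved with this comparison. Of 10 markers 7 were lower under LL, beside 3.63% of all probe sets, with a median change of -1.55. Their mean level per array was 4.27 to 5.33 under LL and 5.19 to 7.52 under SL. AGP23 (AT3G57690) changed by -2.01 ± 0.35, a polygalacturonase gene (AT3G07820) by -1.97 ± 0.37 and a pectate lyase gene (AT3G01270) by -1.84 ± 0.36. The 2 lower at 15C were AGP23 (-0.95 ± 0.35) and PPME1 (AT1G69940, -0.45 ± 0.13), beside 12.8% of all probe sets. Under N0 the limma fit called 0 (6.07% of all lower, 5.86% higher). The part of pollen RNA in these results was not tested. Of the nuclear organelle transcription genes 1 of 21 fell under LL (PAP11, AT1G63680, -0.14 ± 0.04), beside 3.63% of all probe sets lower. None of the ribonuclease, photosynthesis, respiratory or seed marker genes was called (3.63% of all lower, 2.73% higher).

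Between lines, averaged over the 5 conditions, some mitochondrial members and no plastid member were called. In each of the 3 pairs of lines 0 of 15 plastid members passed and 3 had an unadjusted p below 0.05 in the limma fit. Such a p was held by 5998 of all 27827 probe sets between NILs DOG3 and DOG1. It was held by 5134 between NILs DOG6 and DOG1 and by 5574 between NILs DOG6 and DOG3. Of all probe sets 6.07%, 4.02% and 4.28% were called higher in these pairs, and 5.01%, 4.23% and 5.34% lower. With 15 members, the plastid counts cannot show that plastid transcripts differed less between lines. ATCG00250 differed by -0.33 ± 0.12 between NILs DOG3 and DOG1 (adjusted p = 0.0957), by -0.21 ± 0.12 between NILs DOG6 and DOG1 and by 0.12 ± 0.12 between NILs DOG6 and DOG3. Without NIL DOG1 15C replicate 2 the plastid count was 2 between NILs DOG3 and DOG1, and without NIL DOG6 SL replicate 3 it was 1 between NILs DOG6 and DOG1.

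Of the 92 mitochondrial members 16 were higher and 6 lower in NIL DOG3 than in NIL DOG1, beside 6.07% of all probe sets higher and 5.01% lower. Between NILs DOG6 and DOG1 9 were higher and 9 lower (4.02% and 4.23% of all), and between NILs DOG6 and DOG3 5 were higher and 14 lower (4.28% and 5.34%). These pairs share arrays with each other. ATMG01000 had its highest levels in NIL DOG1, with arrays of 9.01 to 9.64 (median 9.22). NIL DOG3 gave 8.65 to 9.02 (median 8.84; -0.38 ± 0.07, adjusted p = 0.000147) and NIL DOG6 8.17 to 9.01 (median 8.88; -0.48 ± 0.07, adjusted p = 3.2e-06). The arrays met at 9.01 and 9.02, and the differences were below 0 in all 5 conditions in both pairs. ATMG00520 was also higher in NIL DOG1, by 0.28 ± 0.07 over NIL DOG3 and by 0.27 ± 0.07 over NIL DOG6, in all 5 conditions.

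ATMG00740, ATMG00750 and ATMG00760, which follow each other in locus number, were higher in NIL DOG3 than in NIL DOG1, by 0.55 ± 0.10 (adjusted p = 5.85e-05), 0.51 ± 0.13 and 0.47 ± 0.14. These differences were 0.81, 1.05 and 1.39 under LL, 1.04, 1.09 and 0.89 under SL, and 0.16, -0.09 and -0.27 at 15C. ATMG00470 was higher by 0.36 ± 0.10. ATMG00730, next to the first of them, was lower by 0.21 ± 0.07 in NIL DOG3, and ATMG00990 by 0.17 ± 0.06. These calls lie near the threshold. With 1 of the 44 arrays left out in turn, ATMG00730 lost its call in 27 fits (limma adjusted p up to 0.182) and ATMG00990 in 17 (up to 0.156), each farthest without NIL DOG3 N0 replicate 2, and ATMG00760 lost it without that array alone (adjusted p = 0.0627).

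NIL DOG6 had higher levels than NIL DOG1 of ATMG00920 (9.22 to 10.28, median 9.95, against 8.93 to 9.79, median 9.49; 0.39 ± 0.06, adjusted p = 1.39e-05), of ATMG00170 and ATMG00620 (0.39 ± 0.08) and of ATMG00740 (0.38 ± 0.09). ATMG01210, chosen after its values were seen, was the sole member whose arrays of a pair of lines did not overlap (0.385% of all probe sets higher), with 10.45 to 10.82 in NIL DOG6 and 9.92 to 10.41 in NIL DOG1 (0.38 ± 0.04, adjusted p = 5.66e-09). Its values are also those of the nuclear pseudogene AT2G07826 on chromosome 2, so the difference cannot be assigned to the mitochondrial locus. ATMG00990 (-0.24 ± 0.06) and ATMG00210 (-0.20 ± 0.04) were lower. Against NIL DOG3, NIL DOG6 was higher in ATMG00730 (0.40 ± 0.07, adjusted p = 7.63e-05), ATMG00400 (0.28 ± 0.05) and the ATMG00170 profile (0.25 ± 0.08). It was lower in ATMG00950 (-0.44 ± 0.14), ATMG00550 (-0.32 ± 0.09), ATMG00490 (-0.29 ± 0.07) and ATMG00940 (-0.27 ± 0.08). The nuclear pseudogene AT2G07677 has the values of ATMG00940. In the same 44 fits the call of the ATMG00170 profile against NIL DOG3 was lost in 20 (limma adjusted p up to 0.101), that of ATMG00950 in 9 (up to 0.0895), that of ATMG00940 in 7 (up to 0.0810) and that of ATMG00550 in 1, without NIL DOG3 N0 replicate 3 (adjusted p = 0.0511).

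Many organelle members deviated together between arrays of the same group, though several plastid members did not. The deviation of each member from its group mean was taken on every array, which leaves 29 degrees of freedom over 44 arrays, and members were correlated over these deviations. The mean Pearson r over pairs was 0.174 within the plastid genome (105 pairs), 0.206 within the mitochondrial genome (4186 pairs) and 0.177 between the genomes (1380 pairs). Over all pairs of the 27827 probe sets it was 0.0068, and over the 3426 probe sets with a mean level above 8 it was 0.0501. With single arrays left out, the mean r was 0.127 to 0.188 within the plastid and 0.177 to 0.216 within the mitochondrial genome. Between the genomes it was 0.153 to 0.188. The lowest plastid value came without NIL DOG1 15C replicate 2. An r above 0.5 was found in 15.2% of plastid, 15.4% of mitochondrial and 14.9% of mixed pairs, beside 0.971% of all pairs and 3.18% of pairs of bright probe sets. An r above 0 was found in 58.1% of plastid, 75.5% of mitochondrial and 70.7% of mixed pairs. That share was 50.8% over all pairs and 57.6% over pairs of bright probe sets. Without the members that have an identical partner, which leaves 3 plastid members, the mean r was 0.268 within the plastid genome and 0.123 between the genomes. All these correlations are descriptions over the same arrays, labelling reactions and normalization.

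**Figure D4:**
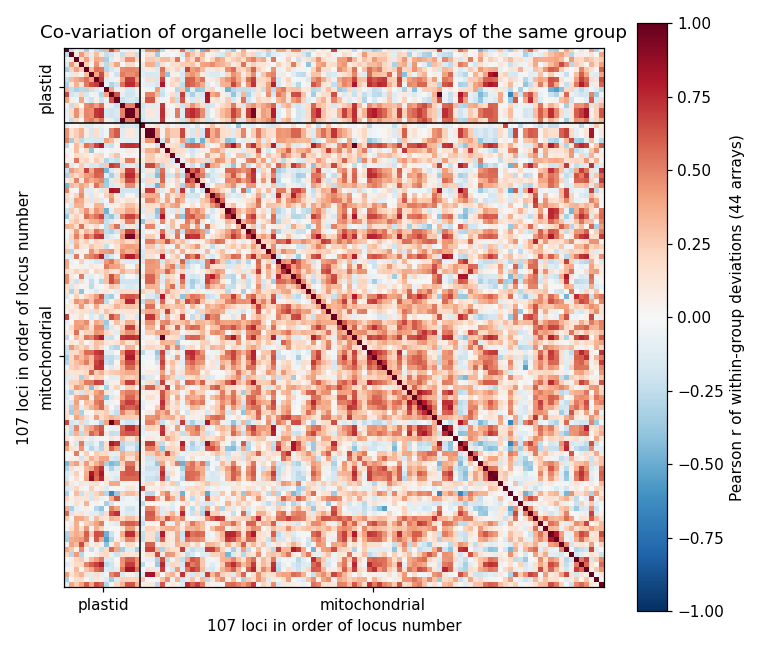
Pearson r between the 107 organelle loci over within-group deviations on 44 arrays, with loci in order of locus number and black lines between the genomes. Red blocks occur inside the mitochondrial genome, inside the plastid genome and between them, with mean r of 0.206, 0.174 and 0.177 over all loci.

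Mitochondrial members close in locus number varied together more than distant ones. Those next to each other in the list had a mean r of 0.323 (90 pairs, 24 of them above 0.5), which was 0.237 at 2 steps, 0.229 at 5 steps and 0.157 at 10 steps. The plastid genome did not show this order, with a mean of 0.262 for adjacent members (13 pairs, the identical pair left out), 0.168 at 2 steps, 0.0878 at 5 steps and 0.258 at 10 steps (5 pairs). The highest r between neighbours that are not identical was that of ATMG01060 and ATMG01070 (0.946), followed by ATMG01250 and ATMG01260 (0.799) and by ATMG00860 and ATMG00870 (0.790). ATMG00740 and ATMG00750, which differed together between lines, had an r of 0.768.

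The mean r of a member with the rest of its genome was highest for ATMG00380 (0.371), ATMG01210 (0.350) and ATMG00860 (0.345), and in the plastid genome for ATCG00240 (0.332), ATCG00250 (0.299) and the ATCG00990 and ATCG01140 profile (0.279). The lowest were ATMG01180 (-0.02) and ATMG00040 (-0.01), both among the dimmest members, and ATMG01190 (0.03), the brightest mitochondrial member. In the plastid genome the lowest were ATCG00580 (-0.04), ATCG00020 (-0.02) and ATCG00670 (0.01), all 3 among its 4 brightest. The plastid members with the largest falls at 15C, ATCG00250 and ATCG00240, were thus also those that varied most with their genome between arrays of a group.

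The plastid mean and the mitochondrial mean of an array moved together within groups. Over 44 arrays the deviations had a Pearson r of 0.860 and a Spearman rho of 0.858, and r was 0.839 without the 2 arrays farthest from the median. Both deviations had the same sign in 37 of 44 arrays. For these values ATMG00930, whose profile is also that of ATCG00610, was left out of the mitochondrial mean. The mean deviation of all nuclear probe sets on the same arrays had an r of -0.12 with the plastid and -0.06 with the mitochondrial deviation. Quantile normalization holds this nuclear mean nearly fixed, and its deviations lay between -0.03 and 0.04. Its r therefore cannot show whether the shared deviation is particular to the organelles. Against the nuclear organelle transcription genes r was -0.01 for the plastid and 0.08 for the mitochondrial deviation. Against the ribonuclease and RNA-binding genes these were 0.331 and 0.389. For the other lists r lay between -0.17 and 0.11.

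**Figure D5:**
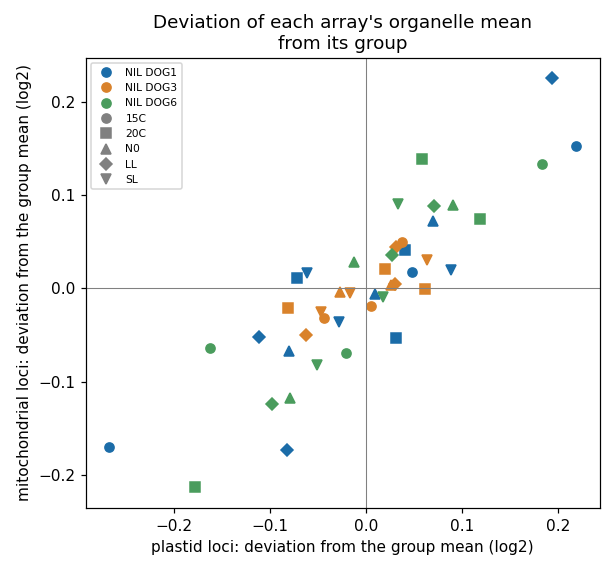
Deviation of each array's mean organelle level from the mean of its group, plastid loci on the horizontal and mitochondrial loci on the vertical axis (both log2), with colours for NILs and symbols for conditions. The 44 arrays lie along the diagonal, and the arrays farthest from 0 include those of NIL DOG1 at 15C and NIL DOG1 under LL. Pearson r was 0.860 with ATMG00930 left out of the mitochondrial mean, whereas the points include that locus.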

How the data were processed

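The log2 values of 44 arrays were deposited by the authors, who used RMA per the submitters' processing notes. RMA includes quantile normalization, which hides any shift in the amount of RNA as a whole. Which RMA version, probe annotation and build they used is not given in the sources used here. Of 107 organelle loci, 0 matched the RefSeq table of the assembly TAIR10.1, which was used for nuclear loci alone, so planned groupings by gene function and by transcription unit could not be made, and sequences are not shown.

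Groups were taken from the labels. One limma 3.58.1 fit in R 4.3.3 (lmFit, eBayes) held the means of all 15 groups over all 27827 probe sets, with no filter and no replicate block, and Benjamini-Hochberg adjustment of two-sided p-values below 0.05 gave the calls. Precision is limited by the number of arrays, with a median SE of 0.104 for plastid and 0.0867 for mitochondrial members at 15C and under LL. The fit was also run on simulated data with independent noise in each probe set, a setting that does not cover members that deviate together. Named members were, in each genome, up to 6 called members per direction of a condition comparison and up to 4 per direction of a pair of lines, taken by size, the extremes of level and of mean correlation, ATCG00250 throughout, and up to 3 called genes of each nuclear list. Members and lists were chosen with earlier results of these data known. The alternatives were a replicate block, eBayes with trend and robust, array weights, a filter on dim probe sets, centring on the nuclear median, fits of the compared groups alone, leaving out each array, leaving out members with identical partners and, for co-variation, Spearman correlation. Same-numbered arrays did not deviate together on average (mean r of 0.0151, and -0.0074 for other numbers). Every same-number r was above 0.1 in 4 of 105 group pairs, all of which include an SL group, the reference of LL. Mean r was 0.233 for NILs DOG1 and DOG3 under SL. NIL DOG3 under N0, with 2 arrays, gave 0.220, 0.309 and 0.112 with SL in NILs DOG1, DOG3 and DOG6. The numbers were not taken to pair the samples, though the labels do not say whether they stand for blocks of the randomized design.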

Additional observations from a re-analysis of the deposited data

How the results depend on the processing

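None of the 57 named changes changed direction under any alternative run. Other called members entered these runs as counts alone, so their direction was not followed. The plastid medians between lines, with no member called, lie near 0 and changed sign, from -0.0068 to 0.04 between NILs DOG3 and DOG1 without NIL DOG3 LL replicate 2, and from -0.01 to 0.0024 between NILs DOG6 and DOG1 without NIL DOG1 LL replicate 3. Of 57 named changes, 360 of 388 values under the alternatives other than leaving out single arrays kept their call and 28 lost it. With single arrays left out, 2331 of 2508 kept their call, 176 lost it and 1 gained it. The replicate block changed the call of 1 named change, ATMG00730 between NILs DOG3 and DOG1 (adjusted p = 0.0553), and gave 10 plastid and 39 mitochondrial calls at 15C. The counts that moved by over 1.5 times were mostly those within lines. With trend and robust eBayes the LL call count was 2 in NIL DOG1 and 12 in NIL DOG6. With array weights N0 gave 1 in NIL DOG1 and 0 in NIL DOG6, and LL gave 2 in NIL DOG1. The filter on dim probe sets gave 4 for N0 in NIL DOG6, 2 and 15 for LL in NILs DOG1 and DOG6, and 24 mitochondrial members for LL. Centring on the nuclear median gave 0 for LL in NIL DOG1 and a mean r between genomes of 0.227. Fitting the compared groups alone, with fewer arrays, gave 2 and 5 for 15C in NILs DOG1 and DOG6, 0 for N0 in NIL DOG6, 1 mitochondrial member for N0, 0 and 0 for LL in NILs DOG1 and DOG6, and 8 mitochondrial members for LL. Without members that have an identical partner, which leaves 3 plastid and 55 mitochondrial members, 15C gave 1 plastid and 21 mitochondrial calls, N0 0 plastid, LL 9 mitochondrial, and the mean r was 0.268 within the plastid genome and 0.123 between genomes. Without the 3 SL arrays numbered 2, LL gave 0 plastid and 5 mitochondrial calls. Without the 20C arrays of NIL DOG6, chosen after seeing the data, N0 gave 0 plastid and 0 mitochondrial calls. Other than where fewer arrays or members show it, the cause was not tested. With each array left out in turn, 15C gave 6 to 17, 17 to 33 and 6 to 16 calls in NILs DOG1, DOG3 and DOG6, and 6 to 12 plastid and 32 to 42 mitochondrial calls. N0 gave 0 to 1 in NIL DOG3, 0 to 5 in NIL DOG6, 0 to 2 plastid and 1 to 7 mitochondrial calls. LL gave 0 to 4 in NIL DOG1, 0 to 12 in NIL DOG6, 0 to 2 plastid and 7 to 21 mitochondrial calls. Mitochondrial calls between lines were 15 to 27, 13 to 19 and 15 to 22, and plastid calls 0 to 2, 0 to 1 and 0 to 0. Dim members such as ATMG00040 and ATMG01180, near the floor of the signal, limit what their values can show.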

Other observations

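The 33 nuclear partners of mitochondrial members lie in a run of 165 genes on chromosome 2, from AT2G07812 to AT2G07764 in the order of the RefSeq table, of which 95 were measured. Of these, 61 had values not identical to any organelle member, and 57 of them lay above the median of all probe sets. At 15C 20 of the 61 were lower and 1 was higher, with a median change of -0.10, beside 12.8% of all probe sets lower and 12.5% higher. Under N0 2 were lower, beside 6.07% of all. Under LL 9 were higher and 2 lower, with a median of 0.09, beside 2.73% of all higher and 3.63% lower. Whether these probe sets respond to nuclear or to mitochondrial transcripts was not tested.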
